A study of Mus musculus with 6 samples.

Results

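Heat shock proteins are molecular chaperones, proteins that keep other proteins folded, refold them or hold them until they can be refolded. HSP70 proteins bind unfolded stretches with the help of J-domain partners and nucleotide exchange factors, HSP90 proteins finish the folding of kinases and receptors, small heat shock proteins hold unfolded clients without ATP, and the HSP60 chaperonin folds proteins inside mitochondria. The transcription factor HSF1 raises many of their genes under heat or other protein stress by binding heat shock elements, alternating repeats of GAA and TTC. In astrocytes, the small heat shock proteins are known for their rise in reactive states.

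The 10 genes described here are Hspa1a, Hspa1b, Hspa8, Hsph1, Hsp90aa1, Dnajb1, Hspb1, Hspb8, Hspd1 and Hspe1, out of 35127 genes measured. They were chosen by name as the main cytosolic and mitochondrial heat shock proteins. Reads of Hspa1a and Hspa1b were summed, which gave 9 rows, and all 9 passed the filter on low counts. The data are bulk RNA-seq of mouse astrocytes, 6 libraries in all. In 3 of them, called tumour here, the cells were associated with brain allografts of small cell lung cancer (SCLC). The other 3 hold astrocytes of sham-injected controls. The sources used here do not give strain, age, the graft line, the time after injection or the way the astrocytes were purified. Nothing says that the libraries came from separate animals, so p-values measure only the spread between these samples, which may be technical.

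The totals ranged from 22133723 to 25800897 estimated reads. Tumour libraries 1 to 3 lay close together, as did sham libraries 1 and 2 (root mean square log2 difference 0.322 to 0.352 in these 4 pairs), while sham library 3 stood 0.795 to 0.802 from sham 1 and 2, farther than the 0.734 to 0.749 between tumour and sham libraries. For the members, values are therefore given for each library, while means and TPM orders include sham 3. All 12 astrocyte markers were detected, with summed levels of 1724 to 1778 TPM (reads per transcript length, scaled to the same sum in each library) in the tumour libraries and 1532 to 2460 TPM in the sham libraries. Single markers differed in both directions. Gja1 was at 292 to 304 TPM in the tumour libraries and at 642, 646 and 401 TPM in sham libraries 1 to 3. Aldh1l1 was at 145 to 151 TPM in the tumour libraries and at 92.4, 98.2 and 121 TPM in sham libraries 1 to 3. Of 13 SCLC markers 6 were below 1 TPM in every library, and the list summed to 42.4 to 46 TPM in the tumour and 46.9 to 61.6 TPM in the sham libraries. Calca, Uchl1 and Nkx2-1 carried most of this sum in both groups. Of the 6, Epcam, Krt8 and Krt18 were higher in every tumour than in every sham library (Epcam 0.17 to 0.25 against 0 TPM). Chga was at 0 in the tumour and at 0.02 to 0.50 TPM in the sham libraries, and Neurod1 and Dll3 overlapped. Microglia and macrophage markers summed to 128 to 135 TPM in the tumour and 64.3 to 85.4 TPM in the sham libraries, with 5 of 10 below 1 TPM throughout (Cx3cr1, P2ry12, Csf1r, Itgam and Ptprc). The higher tumour sum was carried by Cd68, at 71.7 to 77.5 TPM against 7.50 to 16.6 TPM, while C1qa was at most 1.46 TPM in the tumour libraries and at 4.67, 5.30 and 0.84 TPM in sham libraries 1 to 3. Summed levels were 114 to 122 TPM in the tumour and 105 to 160 TPM in the sham libraries for neuron markers, 160 to 168 and 150 to 233 TPM for oligodendrocyte markers, 425 to 433 and 302 to 444 TPM for endothelial and mural markers, and 1246 to 1272 and 1269 to 1948 TPM for fibroblast markers. Of the neuron markers Rbfox3 was listed at 0 and Stmn2 was at 76.9 to 120 TPM over the 6 libraries. Of the endothelial and mural markers Cldn5 was listed at 0, Pecam1 and Rgs5 were below 1 TPM throughout, and Cdh5 was at 170 to 197 TPM. Acta2 was at 182 to 187 TPM in the tumour libraries and at 73.6, 76.4 and 206 TPM in sham libraries 1 to 3. The part of these cell types in the results was not tested.

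Because HSF1 is known to act on many heat shock genes through heat shock elements, the promoter windows of the members are shown first. RefSeq windows of the GRCm38.p6 build, from 250 bases before to 50 bases after each start site, were found for 8 of the 10 members. They were searched on both strands for a 3-repeat element (GAA, TTC and GAA, with 2 unspecified bases between neighbours) and for its shorter parts GAANNTTC and TTCNNGAA, which every 3-repeat match also contains. Hspa1a and Hspa1b lie next to each other on the minus strand of chromosome 17. Their 250 bases upstream are printed whole to show how alike the copies are, with the match in capitals.

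Hspa1a (chr17:34972157-34972406, minus strand): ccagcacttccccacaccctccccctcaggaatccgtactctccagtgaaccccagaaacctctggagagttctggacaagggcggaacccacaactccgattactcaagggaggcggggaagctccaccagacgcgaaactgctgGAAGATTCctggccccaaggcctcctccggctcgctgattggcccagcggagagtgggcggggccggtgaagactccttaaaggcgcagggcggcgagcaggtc
Hspa1b (chr17:34959239-34959488, minus strand): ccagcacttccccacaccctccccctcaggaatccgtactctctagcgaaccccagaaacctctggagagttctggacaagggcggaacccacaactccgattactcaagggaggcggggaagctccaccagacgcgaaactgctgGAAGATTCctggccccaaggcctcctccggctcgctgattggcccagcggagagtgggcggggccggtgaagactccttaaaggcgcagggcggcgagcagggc

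The stretches differ at 3 of 250 bases, C44T, T47C and T249G, written from Hspa1a to Hspa1b with positions counted from 1 at the 5′ end. Both hold GAAGATTC 96 bases before the start site. The matches of other members are given as 30-base stretches with the element in capitals, so that members that rose and members that were not called can be set side by side.

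Hspb1 (chr5:135887801-135887830, plus strand): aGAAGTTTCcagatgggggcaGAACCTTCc
Hspb8 (chr5:116422844-116422873, minus strand): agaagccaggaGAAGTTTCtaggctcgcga
Hsph1 (chr5:149636351-149636380, minus strand): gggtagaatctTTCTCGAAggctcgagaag
Hsph1, second site (chr5:149636280-149636309, minus strand): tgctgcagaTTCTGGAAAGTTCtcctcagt
Hspd1 (chr1:55088053-55088082, minus strand): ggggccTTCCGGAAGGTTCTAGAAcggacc
Hspe1 (chr1:55088053-55088082, plus strand): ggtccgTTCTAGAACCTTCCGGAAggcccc

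The last 2 stretches are the same bases read from opposite strands. Hspd1 and Hspe1 point away from each other on chromosome 1 and share this run, in which 2 matches of the 3-repeat element overlap. It lies 126 bases before 1 of the 2 listed start sites of Hspd1 and 71 bases before that of Hspe1, and overlaps an annotated exon of Hspd1. Hsph1 held a 3-repeat element 16 bases after a start site. The matches of Hspb1 lie 109 and 89 bases before its start site. That of Hspb8 lies 3 bases after its start site, in a stretch that overlaps an annotated exon of Hspb8. No match was found in the windows of Dnajb1. Hspa8 and Hsp90aa1 had no window and were not searched. The 3-repeat element occurred in 0.6% of all 32851 promoter windows, and the shorter forms in 15.1%. These matches are letters in a window and were not tested as binding sites.

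Of the 9 rows, 2 were higher in the tumour libraries and 0 were lower, called at an adjusted p below 0.05 by edgeR. Of all 14358 tested genes 10.5% were called higher, 10.4% lower and 20.9% in either direction, so the members' count was near the background. The groups did not overlap for 3 rows, against 44.1% of all tested genes. The 2 were the small heat shock protein gene Hspb1 and the stress-inducible HSP70 pair Hspa1a and Hspa1b. The other 7 had log2 fold changes between -0.23 and 0.07 with adjusted p from 0.343 to 0.919. The median log2 fold change of the 9 rows was -0.02, and that of all tested genes was -0.02 as well. In bulk RNA, a change in the share of cells that express a gene and a change in RNA per cell cannot be told apart.

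Hspb1 (chr5:135887919-135889563 in mm10) encodes a small heat shock protein that holds unfolded clients and binds actin and intermediate filaments. It stood at 520, 489 and 492 CPM (reads scaled to library size, with TMM factors between libraries) in tumour libraries 1 to 3 and at 226, 233 and 189 CPM in sham libraries 1 to 3. Every tumour library was above every sham library, and sham 3 was the lowest. The means were 500 ± 16.8 and 216 ± 23.8 CPM (SD, n = 3), a rise of 2.31-fold (log2 fold change 1.21, SE 0.11, adjusted p = 0.0013 by edgeR). The call held whichever library was left out, with log2 fold changes from 1.12 to 1.26 and edgeR adjusted p of at most 0.0162. Its pseudogene Hsp25-ps1 shares 52.3% of its 31-base words but was given at most 0.12% of their joint reads, and with both summed the log2 fold change was again 1.21.

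The pair Hspa1a (chr17:34969190-34972156) and Hspa1b (chr17:34956436-34959238) encodes the HSP70 proteins that are scarce in unstressed cells and raised by heat shock. Their summed level was 132, 139 and 141 CPM in tumour libraries 1 to 3 and 78.5, 83.9 and 54.1 CPM in sham libraries 1 to 3. The groups did not overlap, which held with tumour above sham for 22.2% of all tested genes. The means were 137 ± 5 and 72.2 ± 15.9 CPM (SD, n = 3), a rise of 1.90-fold (log2 fold change 0.93, SE 0.16, adjusted p = 0.0116 by edgeR). Without any 1 of the tumour libraries the fold change was 0.91 to 0.96 on the log2 scale, but the call was lost (edgeR adjusted p from 0.0535 to 0.0585). Without sham 3 it was 0.76.

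The reads of this pair cannot be divided firmly between its genes. Of the 31-base words of Hspa1a, 63.8% also occur in Hspa1b, and of those of Hspa1b, 67.6% occur in Hspa1a. Salmon, which assigns reads to transcripts, gave Hspa1b between 60.0% and 62.9% of the joint reads in 5 libraries and 67.0% in sham 3. Taken as separate rows, both were called higher, Hspa1a by 0.94 on the log2 scale (SE 0.22, adjusted p = 0.0301 by edgeR) and Hspa1b by 0.92 (SE 0.13, adjusted p = 0.0056 by edgeR). These separate values are uncertain for the reason given.

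**Figure D1:**
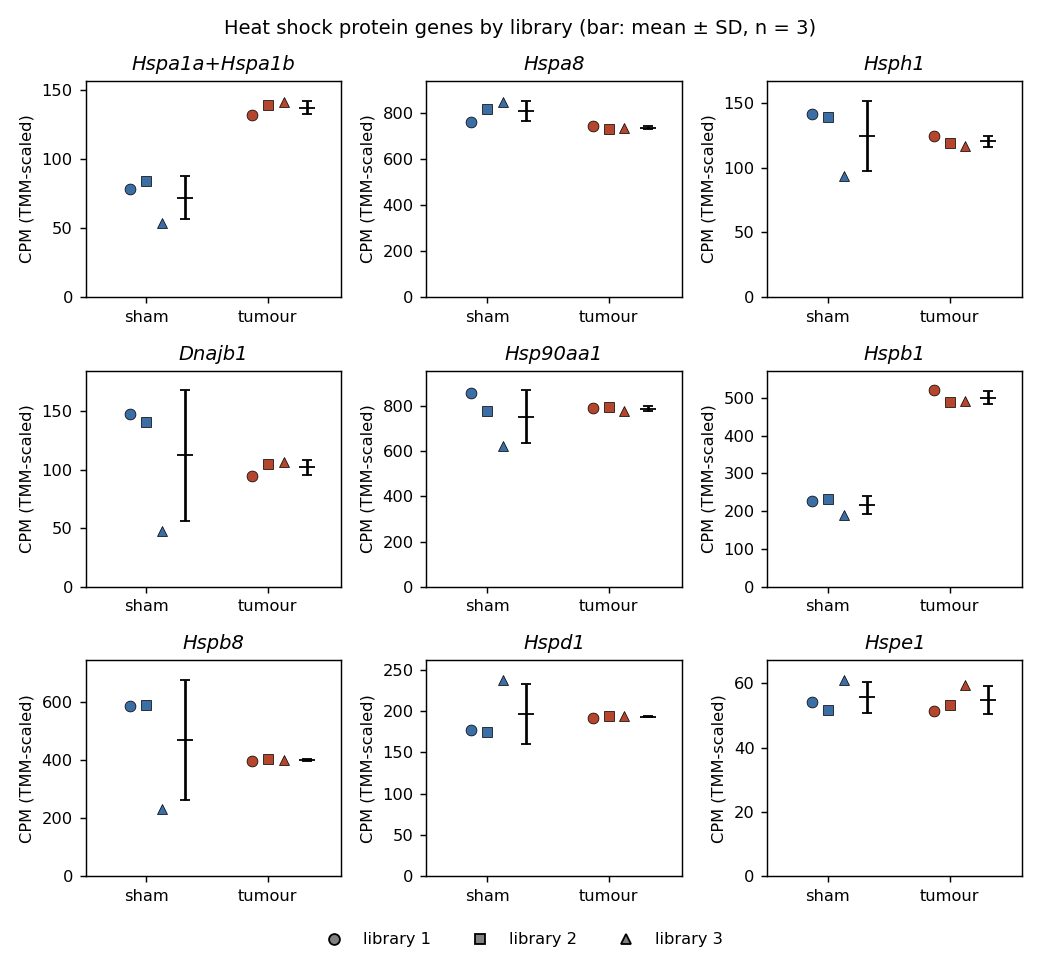
Level of each heat shock protein gene in CPM (y axis, from 0) in the sham (blue) and tumour (red) libraries, with 1 marker shape per library number and a bar for mean ± SD (n = 3). Tumour values of Hspb1 and of the Hspa1a and Hspa1b pair lie above all sham values, and sham 3 (blue triangle) lies far below sham 1 and 2 for Dnajb1 and Hspb8.

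Hspa8 (chr9:40800984-40810087 in mm10) encodes HSC70, the constitutive cytosolic HSP70 that serves folding, clathrin uncoating and chaperone-mediated autophagy. It was at 741, 730 and 733 CPM in tumour libraries 1 to 3 and at 760, 814 and 848 CPM in sham libraries 1 to 3. All tumour values lay below all sham values, as for 21.9% of tested genes, by a small margin. The log2 fold change was -0.14 (SE 0.09, adjusted p = 0.343 by edgeR). Hspa8 has 6 near copies in the files, each holding at least 10% of its 31-base words, and 40% to 42.9% of their joint reads were given to these copies. Its level is therefore less certain than its spread shows. With the copies added the log2 fold change was -0.12 (adjusted p = 0.452 by edgeR).

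Hsph1 (chr5:149614287-149636376) encodes HSP110, which releases nucleotide from HSP70 and so resets its cycle. It was at 125, 119 and 117 CPM in tumour libraries 1 to 3 and at 141, 139 and 93.2 CPM in sham libraries 1 to 3, so the tumour values lay between sham 3 and the other sham libraries. The log2 fold change was -0.05 (SE 0.16, adjusted p = 0.849 by edgeR).

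Dnajb1 (chr8:83608193-83612653) encodes HSP40, the J-domain partner that hands clients to HSP70 and is itself raised by heat shock. It was at 94.9, 105 and 107 CPM in tumour libraries 1 to 3, and at 148, 141 and 48.0 CPM in sham libraries 1 to 3. It had the widest range of the 9 rows, with a ratio of 3.07 between its highest and lowest library, both of them sham. The log2 fold change was -0.14 (SE 0.39, adjusted p = 0.835 by edgeR), and its sign turned without sham 1 (0.10) or sham 2 (0.06). The log2 fold change was -0.50 without sham 3.

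Hsp90aa1 (chr12:110690605-110702728) encodes the inducible cytosolic HSP90. It was at 792, 795 and 775 CPM in tumour libraries 1 to 3 and at 854, 775 and 623 CPM in sham libraries 1 to 3. Its groups overlapped, with sham 3 lowest (log2 fold change 0.07, SE 0.14, adjusted p = 0.755 by edgeR).

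Hspb8 (chr5:116408491-116422864) encodes a small heat shock protein that works with the co-chaperone BAG3 in sending aggregated proteins to autophagy. It was at 397, 405 and 401 CPM in tumour libraries 1 to 3 and at 589, 591 and 231 CPM in sham libraries 1 to 3. The tumour values lay between sham 3 and the other sham libraries, and the log2 fold change was -0.23 (SE 0.34, adjusted p = 0.673 by edgeR). Against sham 1 and 2 alone it was -0.56. Hspb1 and Hspb8, of the same family and both on chromosome 5, thus had different outcomes: the call of Hspb1 held whichever library was left out, while Hspb8 was called only without sham 3. The difference between them was not tested.

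The mitochondrial chaperonin genes had nearly the same mean level in both groups. Hspd1 (chr1:55077835-55088243) encodes HSP60, the chaperonin ring, and Hspe1 (chr1:55088132-55091307) encodes HSP10, its lid. Hspd1 was at 192, 194 and 194 CPM in tumour libraries 1 to 3 and at 177, 174 and 237 CPM in sham libraries 1 to 3, so that the log2 fold change was -0.02 (SE 0.13, adjusted p = 0.919 by edgeR). Sham 3 was the highest library for it. Hspe1 was at 51.3, 53.4 and 59.6 CPM in the tumour libraries and at 54.3, 51.8 and 61.0 CPM in the sham libraries, with overlapping groups (log2 fold change -0.02, SE 0.09, adjusted p = 0.874 by edgeR). Without sham 3 the log2 fold change was 0.14 for Hspd1 and 0.04 for Hspe1.

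Among the sham libraries, sham 3 was lowest for 6 of the 9 rows and highest for the other 3, which were Hspa8, Hspd1 and Hspe1. Because sham 1 and 2 lay close together, sham 3 can be the extreme one for many genes, a share that was not counted. The median log2 difference of sham 3 from sham 1 and 2 was -0.384 over the 9 rows and -0.001 over all tested genes. Sham 3 was at 0.333 times the mean of sham 1 and 2 for Dnajb1 and at 0.391 times for Hspb8. At least a 2-fold deficit against both held for these members and for 7.05% of all tested genes. For the pair Hspa1a and Hspa1b this ratio was 0.666, for Hsph1 0.665, for Hsp90aa1 0.765 and for Hspb1 0.823. The early response genes that cell dissociation is known to raise were lower in sham 3 than in sham 1 and 2. Their summed level was 5041 and 5298 TPM in sham 1 and 2, 1136 TPM in sham 3, and 4408 to 4585 TPM in the tumour libraries. Sham 3 was the lowest of the 6 libraries for all 14 of these genes. How many of all tested genes had sham 3 lowest of the 6 was not counted. Over these 14 genes the median log2 difference of sham 3 from sham 1 and 2 was -2.185. Fos was at 1536 and 1607 CPM in sham 1 and 2, at 166 CPM in sham 3, and at 1251 to 1273 CPM in the tumour libraries. Of these 14 genes 0 were called between tumour and sham libraries by edgeR. Their part in the heat shock values was not tested.

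Without sham 3, edgeR called 3 members higher (Hspb1, the Hspa1a and Hspa1b pair, and Hspd1) and 4 lower (Hspa8, Hsph1, Dnajb1 and Hspb8), but 29.1% of all genes were then called higher and 28.6% lower. The remaining sham libraries nearly coincide, and these calls stand beside a background in which most genes were called.

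**Figure D2:**
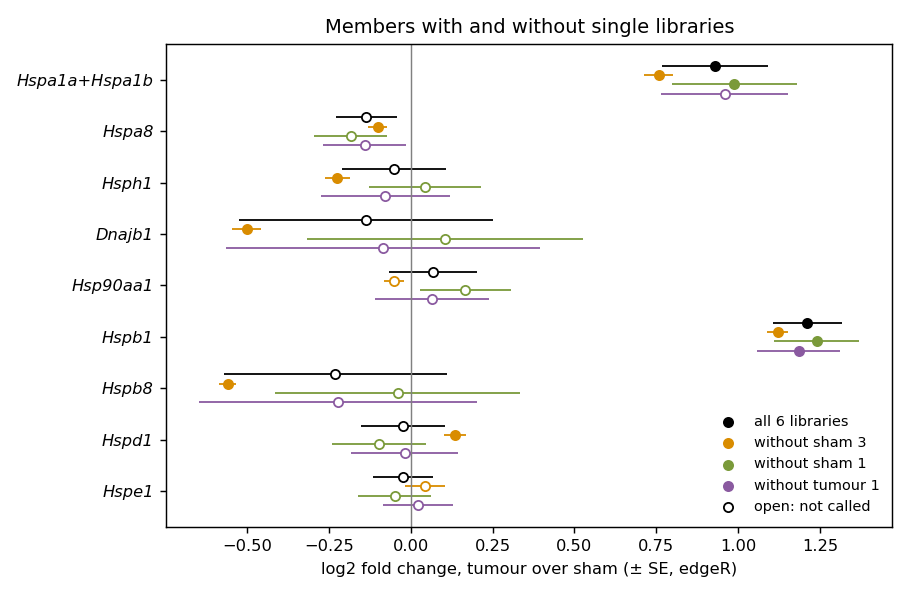
Log2 fold change of each member, tumour over sham (x axis, edgeR, bars ± SE), with all 6 libraries and without sham 3, sham 1 or tumour 1; filled points were called, open points were not. Hspb1 stays between 1.12 and 1.24 in the fits drawn, while Dnajb1 moves from -0.50 without sham 3 to 0.10 without sham 1.

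Levels between genes can be compared per length, in TPM. In the sham libraries the order of mean TPM was Hspa8 (721 ± 60.2), Hsp90aa1 (412 ± 47.3), Hspb8 (394 ± 170), Hspb1 (375 ± 43.5), Hspe1 (177 ± 16.1), Hspd1 (134 ± 29.9), Hsph1 (59.2 ± 4.90), Dnajb1 (54.2 ± 26.4) and the Hspa1a and Hspa1b pair (27.6 ± 6.35; SD, n = 3). Hsp90aa1 was above Hspb1 in each sham library (444, 435 and 358 against 384, 414 and 328 TPM). Of the TPM of Hsp90aa1, a 325-base transcript with a retained intron gave 38.4, 68.1 and 57.1 in sham 1 to 3. This order therefore rests in part on a short model. Hspb8 was above both in sham 1 and 2 (486 and 499 TPM) and below both in sham 3 (197 TPM). Dnajb1 was above Hsph1 in sham 1 and 2 (70.0 and 68.8 against 64.2 and 59.0 TPM). In sham 3 it was below Hsph1 (23.7 against 54.4 TPM). These differences between genes were not tested. In the tumour libraries Hspb1 was at 896 ± 54.7 TPM and Hspa8 at 682 ± 8.94 TPM. This order turned when the near copies of Hspa8 were added, which gave 1099, 1080 and 1080 TPM in tumour libraries 1 to 3. The Hspa1a and Hspa1b pair was at 53.2 ± 1.05 TPM and Dnajb1 at 50.5 ± 2.58 TPM there.

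Hspa1a and Hspa1b had 1 listed transcript each. For 5 other members 1 transcript held at least 88% of the gene's TPM in every library. Its share of the gene's TPM was 98.2% to 99.2% for Hspb1, 99.2% to 99.9% for Hspb8, 98.4% to 99.9% for Hspe1, 91.2% to 98.9% for Dnajb1 and 88.1% to 95.1% for Hspd1. Hsp90aa1 was divided mainly between 2 long coding transcripts, with 42.5% to 48.8% and 35.3% to 40.1%. A 325-base transcript with a retained intron, given 21.5 to 86.4 reads, had 4.6% to 15.95%. The TPM of Hsp90aa1 thus rests in part on a short model. For Hspa8, the main coding transcript had 54.9% to 63.9% and a short noncoding transcript 26.4% to 33.0%, so the TPM of Hspa8 rests in part on that short model. The main transcript of Hsph1 had 51.2% to 76.1%, and a 254-base noncoding transcript read by 1 to 14 reads had 2.38% to 27.2%, so the TPM of Hsph1 also rests in part on a short model.

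The ratio of the inducible to the constitutive HSP70 within a library does not depend on scaling between libraries. The TPM of the Hspa1a and Hspa1b pair was 0.0756, 0.0799 and 0.0784 times that of Hspa8 in tumour libraries 1 to 3, and 0.0440, 0.0466 and 0.0261 times in sham libraries 1 to 3. All tumour ratios were higher, by 2.07-fold on the mean log2 scale (exact two-sided permutation test, p = 0.1, the smallest that 3 against 3 libraries allow; adjusted p = 0.3 over 3 ratios). With the copies of Hspa8 added, the ratios were 0.0473 to 0.0499 in the tumour and 0.0161 to 0.0296 in the sham libraries. For HSP90, the ratio of Hsp90aa1 to the constitutive Hsp90ab1 was 0.674 to 0.770 in the tumour libraries, and 0.997, 0.910 and 0.490 in sham libraries 1 to 3 (exact permutation p = 1). The tumour ratios lay between sham 3 and the other sham libraries. Hspd1 stood at 0.711 to 0.796 times the TPM of Hspe1 in the tumour libraries and at 0.684 to 0.862 times in the sham libraries (exact permutation p = 0.8).

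**Figure D3:**
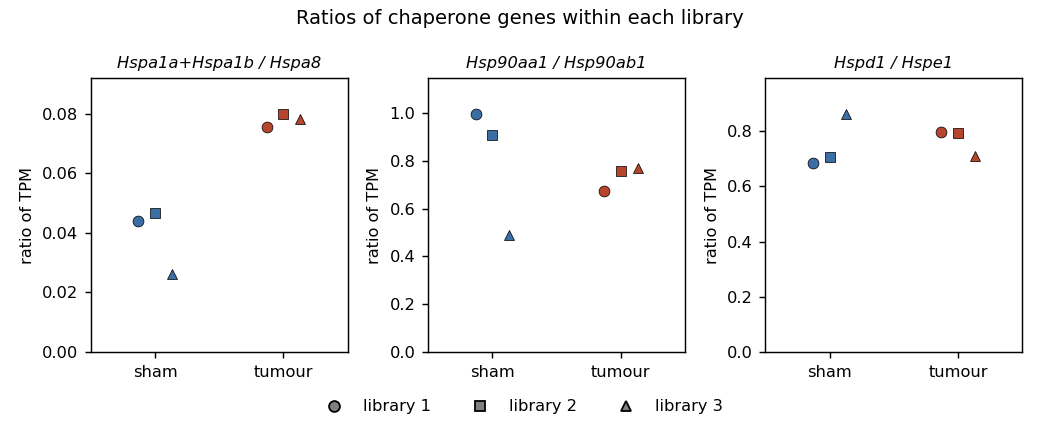
Ratio of TPM between a pair of chaperone genes within each library (y axis, from 0) for sham (blue) and tumour (red) libraries, with 1 marker shape per library number. The inducible to constitutive HSP70 ratio is 0.0756 to 0.0799 in the tumour libraries and 0.0261 to 0.0466 in the sham libraries, while the groups overlap in the other ratios.

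Over the other chaperone genes, 12 were higher and 13 lower among 76 tested, with a median log2 fold change of 0.00. Of all tested genes 10.5% were called higher and 10.4% lower, shares that stand beside the count of each list below. No list was tested as a set. The transcription factor gene Hsf1 stood at 36.6 ± 2.67 CPM with tumour and 35.3 ± 4.29 CPM with sham injection (SD, n = 3; adjusted p = 0.775 by edgeR). Hsf2 fell (log2 fold change -0.50, adjusted p = 0.0432 by edgeR) and Hsf4 rose (0.56, adjusted p = 0.033 by edgeR) to 8.57 CPM, out of 4 tested genes of heat shock factors and their binding protein. Both calls were lost without any 1 tumour library or without sham 2, and that of Hsf2 also without sham 1 and under limma-voom. That of Hsf4 was lost with transcript length offsets (adjusted p = 0.07 by edgeR) and with no filter.

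Of 11 genes of HSP90 and its co-chaperones 6 fell and 0 rose, where 10.4% of all tested genes were lower and 10.5% higher. Their median log2 fold change was -0.24, against -0.02 over all tested genes. Chordc1, a partner of HSP90 known as a heat shock target, fell from 57.8 ± 5.43 to 39.9 ± 2.53 CPM (log2 fold change -0.54, SE 0.09, adjusted p = 0.0104 by edgeR). Ahsa2 (-0.49), the cyclophilin gene Ppid (-0.34) and Cacybp (-0.36) fell as well, and so did Ahsa1 and Fkbp4. Whether the calls of Ahsa1 and Fkbp4 held under the alternatives was not examined. The calls of Chordc1 (tumour 1 or 2), Ahsa2 (tumour 1 or 3), Ppid (any tumour library) and Cacybp (any tumour library or sham 1) were lost without the library named. These 4 calls were also lost with transcript length offsets, where Chordc1 was at -0.26 (adjusted p = 0.257 by edgeR) and the others had adjusted p from 0.0503 to 0.0659. Hsp90ab1 itself was at 1161 ± 37.0 and 1071 ± 300 CPM (adjusted p = 0.72 by edgeR). It was at 1417 CPM in sham 3 and at 889 and 908 CPM in sham 1 and 2.

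Among 9 other cytosolic J-domain genes 2 fell and 0 rose. Dnaja1, a type I HSP40 raised by heat shock, was at 123, 127 and 125 CPM in tumour libraries 1 to 3 and at 228, 213 and 170 CPM in sham libraries 1 to 3 (log2 fold change -0.70, SE 0.12, adjusted p = 0.00945 by edgeR). All tumour values lay below all sham values, though the call ended without any 1 tumour library. Dnajc7 fell by 0.26 on the log2 scale, a call that held in the leave-outs only without sham 3 and was lost with transcript length offsets (adjusted p = 0.103 by edgeR). In the HSP70 and HSP110 family outside the members, 1 of 7 rose and 2 fell. Hspa4l, an HSP110 relative of Hsph1, rose from 145 ± 0.447 to 214 ± 4.23 CPM, by 0.57 on the log2 scale (SE 0.06, adjusted p = 0.00238 by edgeR), a call kept whichever library was left out. Hspa4 (-0.38) and Hspa14 (-0.32) fell. Both calls were lost without any 1 tumour library or without sham 2, and that of Hspa4 also without sham 1. Of 9 nucleotide exchange and co-chaperone genes of HSP70 0 were called by edgeR. Bag3, a heat shock target that links HSP70 to Hspb8, was at 114 ± 3.34 and 121 ± 7.80 CPM (adjusted p = 0.421 by edgeR). The most abundant of these genes, St13 and Stip1, had log2 fold changes of 0.07 and -0.19.

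Of 4 tested small heat shock genes outside the members 2 rose and 0 fell. Cryab, which encodes alphaB-crystallin, was at 573, 563 and 572 CPM in tumour libraries 1 to 3 and at 377, 412 and 278 CPM in sham libraries 1 to 3, without overlap (log2 fold change 0.68, SE 0.15, adjusted p = 0.0256 by edgeR). Hspb7 was at 77.7, 88.7 and 83.6 CPM in the tumour libraries and at 3.78, 3.16 and 26.2 CPM in the sham libraries (2.92, SE 0.79, adjusted p = 0.0443 by edgeR). Sham 3 had several times the Hspb7 level of sham 1 and 2, and its log2 fold change ranged from 2.47 to 4.58 over the alternatives. The calls of Cryab and Hspb7 ended without any 1 tumour library or without sham 1, and that of Hspb7 also without sham 2, with no filter and with transcript length offsets (adjusted p = 0.0518 by edgeR). Of 7 tested subunits of TRiC, the cytosolic chaperonin, 0 were called by edgeR. The most abundant, Cct2 and Cct8, were at 181 ± 2.93 and 174 ± 1.21 CPM in the tumour libraries and at 183 ± 44.7 and 176 ± 29.3 CPM in the sham libraries, with sham 3 the highest library for both.

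Of 14 mitochondrial chaperone and protease genes outside the members, 5 rose and 1 fell. Hspa9, which encodes mortalin, the mitochondrial HSP70 that pulls proteins in through the inner membrane, was at 468, 463 and 467 CPM in tumour libraries 1 to 3 and at 248, 249 and 254 CPM in sham libraries 1 to 3. Its groups did not overlap, and sham 3 lay close to the other sham libraries (log2 fold change 0.90, SE 0.07, adjusted p = 0.00101 by edgeR). The matrix protease gene Lonp1 rose from 73.9 ± 1.59 to 114 ± 1.21 CPM (0.62, SE 0.05, adjusted p = 0.00122 by edgeR). The calls of Hspa9 and Lonp1 held whichever library was left out. Dnaja3, the J-domain partner of mortalin (0.35), and the protease subunit gene Clpp (0.36) also rose. The call of Dnaja3 was lost without tumour 1 or 3, and that of Clpp without any tumour library or sham 1. The others called were Htra2 (0.47) and Spg7 (-0.35), named after their values were seen. Whether their calls held under the alternatives was not examined. In the endoplasmic reticulum 3 of 11 chaperone genes rose and 1 fell. The HSP70 gene Hspa5 rose from 642 ± 7.80 to 917 ± 9.21 CPM (log2 fold change 0.52, adjusted p = 0.0104 by edgeR). The HSP90 gene Hsp90b1 rose by 0.60 and the disulfide isomerase gene Pdia4 by 0.30 on the log2 scale. These calls were lost without any 1 tumour library, and those of Hsp90b1 and Pdia4 also without sham 1 or sham 2. That of Pdia4 was lost as well with no filter, with library totals alone and with transcript length offsets (adjusted p = 0.0687 by edgeR). Dnajb11 fell by 0.44, a call that held whichever library was left out.

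**Figure D4:**
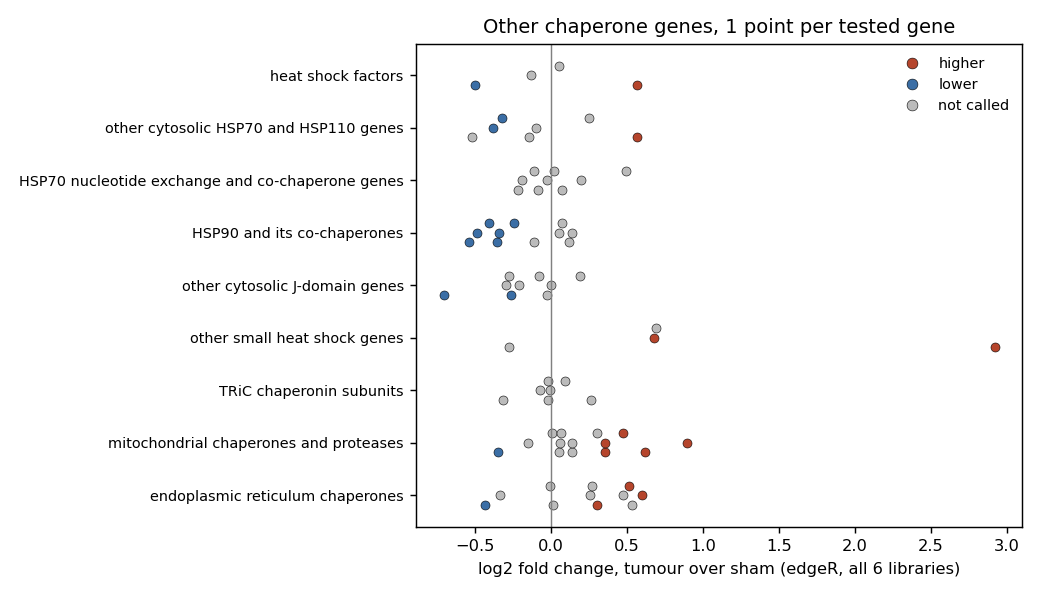
Log2 fold change, tumour over sham (x axis, edgeR, all 6 libraries), of each tested chaperone gene outside the members, by list (y axis), coloured by call. Genes of HSP90 and its co-chaperones that were called are all lower, and the point near 2.9 is Hspb7.

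Among the 5 tested genes whose log2 CPM followed the Hspa1a and Hspa1b pair most closely over the 6 libraries (mean of at least 5 CPM) were Macrod1 (Pearson r = 0.9995), Bhlhe41 (0.9989), the cyclin gene Ccnb2 (0.9988) and Gpank1 (0.9981). The libraries fall into 3 sets that nearly coincide within themselves, so these r describe that pattern alone.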

How the data were processed

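The 3 tumour and 3 sham RNA-seq libraries of mouse astrocytes were grouped and numbered by the sample titles. Per the submitters' processing notes, Salmon 0.8.2, DESeq2 1.28.1 and mm10 were used. Per the file headers the authors deposited, for each transcript, an estimated count (expected reads), TPM, length and effective length. For strand, library kit and index, the sources used here give nothing.

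Of 113116 transcripts 112841 had an entry in GENCODE M21 (GRCm38) once identifier versions were dropped, carrying at least 99.9% of reads. Estimated counts were summed per gene, with Hspa1a and Hspa1b as 1 row, and rounded. edgeR 4.0.16 (R 4.3.3) was used with TMM, filterByExpr (minimum count 10, total 15), a robust quasi-likelihood fit on group alone, and Benjamini-Hochberg adjustment over all genes. SE is the log2 fold change over the square root of F. Copies were found by shared 31-base words in the transcript sequences. Of 81 other chaperone genes listed, 80 were matched. Alternatives were limma-voom 3.58.1, DESeq2 1.42.0 and those in the closing section. The samples' numbers do not pair them (correlations of same-numbered deviations -0.02 to 0.01).

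Genes named were all members, 7 fixed chaperone genes, from each list the called genes of smallest p (at most 4) or, with none called, the 2 most abundant, and 5 genes like the HSP70 pair, of which 1 is not reported here. Fos, Ahsa1, Fkbp4 and single cell type markers were named after their values were seen. Members and lists were chosen with earlier results of these data known. On simulated counts for the tumour against sham comparison (14358 genes, 14204 tested), edgeR recovered 52% of 2-fold and 84% of 4-fold changes, and 5.56% of its calls were unchanged genes. The simulated libraries were drawn independently of each other, while the real ones form sets that nearly coincide. These rates therefore do not describe the calls in the real libraries.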

Additional observations from a re-analysis of the deposited data

How the results depend on the processing

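Depth was similar in all libraries, and no member was near the filter on low counts. The limit is the number of libraries and how near some of them are to each other. Among 143 values of members under the alternatives, 120 kept both direction and side of the threshold. With tumour libraries 1 to 3 summed and sham 1 and 2 summed, edgeR called 0 members and 0 genes in either direction (399 genes higher and 173 lower at an unadjusted p below 0.05, with 2 members higher among them). Leaving out 1 library in turn gave 535 to 4250 genes higher, 355 to 4176 lower, 1 to 3 members higher and 0 to 4 lower. The replicate number as a block gave 829 genes higher and 607 lower, and did not change the call of any member. It ended the calls of Hsf2, Hsf4, Hspa4, Hspa14, Ppid, Cacybp and Dnajc7. Those of Cryab, Hspb7, Dnaja3, Hspa5, Hsp90b1 and Pdia4 ended with the block as well. Adjusted p of these genes then ran from 0.0511 (Hspb7) to 0.103 (Pdia4) by edgeR. Transcript length offsets left 969 genes lower and ended the calls of Hsf4, Chordc1, Ahsa2, Ppid, Cacybp, Dnajc7, Hspb7 and Pdia4. DESeq2, limma-voom, other size factors, library totals and no filter did not change the call of any member, nor did summing near copies, which was chosen after seeing the data. Of the 7 members not called, 5 changed sign under at least 1 alternative, and Hspa8 and Hspb8 did not. With 1 library left out, log2 fold changes ranged from -0.5 (without sham 3) to 0.105 (without sham 1) for Dnajb1, from -0.224 to 0.043 for Hsph1, from -0.051 to 0.166 for Hsp90aa1, from -0.108 to 0.135 for Hspd1 and from -0.089 to 0.045 for Hspe1. Among other chaperone genes they ranged from -0.128 to 0.199 for Cct2, from -0.109 to 0.123 for Cct8, from -0.017 to 0.152 for Hsf1 and from -0.008 to 0.369 for Hsp90ab1. Dnajb1 was at 0.031 under limma-voom, 0.01 with the replicate block and 0.081 with near libraries summed. Cct2 was at 0.006 under limma-voom and 0.008 with the replicate block. With length offsets Hsph1 was at 0.074 and Hspd1 at 0.017, and with near libraries summed Hsph1 was at 0.037 and Hsf1 at -0.001. The log2 difference of the Hsp90aa1 to Hsp90ab1 ratio ranged from -0.377 to 0.135 with 1 library left out, and that of Hspd1 to Hspe1 from -0.028 to 0.139. The cause was not tested.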
